A study of Bos taurus with 12 samples.

Results

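The transcripts described here come from 8 interferon-stimulated antiviral genes, ISG15, MX1, MX2, OAS1X, OAS2, RSAD2, PSMB9 and XAF1, in the endometrium of cycling cows. They were chosen by gene, through the names and identifiers that the scanner files give each probe, and are 8 of the 5982 genes that could be named among 15208 probes. The choice was made with earlier results of these data known. Counts of the 8 set beside shares of all probes are therefore description and not independent evidence. Each of the 8 genes had 1 probe on the array, so no choice between probes was needed.

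The endometrium, the lining of the uterus, was biopsied in cows of the Japanese-Black breed on cycle day 15. Biopsies were taken in summer (early September) or in autumn (mid-November) over consecutive years, from the horn next to the corpus luteum (CL side) or from the opposite horn (non-CL side). No treatment is given for any group, and all 4 groups share breed, tissue and day of the cycle. Each of the 12 biopsies was hybridised to a 1-colour Agilent array, 3 arrays per group. The labels do not say which animal or which year each biopsy came from, so p-values measure only the spread between these samples, which may be technical.

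Interferons bind receptors on the cell surface, and kinases bound there activate transcription factors. With IRF9 these form a complex that enters the nucleus and switches on many antiviral genes. In ruminants the uterus has a particular link to this pathway. Around the time at which the mother recognises pregnancy, the trophoblast of the embryo secretes interferon tau, and the endometrium answers with the same genes that other tissues use against viruses. The cows studied here were sampled in the cycle, and the levels below are therefore those of a cyclic endometrium.

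The probes define what was measured, and the last 30 of the 60 bases are given here for 7 of them, 5′ to 3′ as in the scanner files. Capitals mark AATAAA, the polyadenylation signal near the end of many transcripts, searched on the strand given.
MX1: ttgtgaatgcatacagaagcctatttcttc
MX2: cgtaccacctgcttcccatcatttgctgtg
OAS1X: gctacttaaatcaaatggagtttcatctcg
OAS2: aaactctggacaacaaggcttcctggttgg
RSAD2: ggagttgttttcccagtcctttcagtttat
PSMB9: cttctttattttgtAATAAActttctggaa
XAF1: agctttctctctgaagAATAAAaaagatct
The signal word stood in the probes of PSMB9 and XAF1. The paralogs MX1 and MX2 had different probes, as did OAS1X and OAS2, and over the 28 pairs of the 8 probes the longest run of bases shared was 8. In the ARS-UCD2.0 gene table, used only for names and neighbours, MX1 and MX2 are adjacent protein-coding genes, and OAS2 lies 2 protein-coding genes from OAS1X. RSAD2 was matched by its gene ID, since the files name it only as a locus, and PSMB9 and XAF1 carry older names there (MGC128062 and BIRC4BP).

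The 75th percentile of the processed signal, the measure used to scale each array, lay between 3516 and 4418 except on replicate 2 of the CL side in summer (the dim array), where it was 2007. Its median correlation with other arrays was 0.928, and the other 11 correlated pairwise at 0.972 or more. The 6 summer arrays and autumn replicate 1 of each side shared slide 1, and autumn replicates 2 and 3 of each side lay on slide 2. Season and slide are therefore only partly separated. Values on the first slide alone, where each side has 1 autumn array, are given for each gene. The 8 probes stood well above background on each of the 12 arrays, and none was saturated.

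Levels are log2 of the processed signal over the array's 75th percentile, so 0 is the level that 75% of the probes stay below. They compare a gene between arrays and do not rank 1 gene against another. Signals behind them differed widely between probes. They ran from 2683 to 9797 for ISG15, 7550 to 24517 for MX1, 6447 to 13318 for PSMB9 and 3016 to 5240 for XAF1. They were 201 to 696 for OAS1X and 192 to 376 for RSAD2. For MX2 they were 26.8 to 174 and for OAS2 33.7 to 121, against a local background near these spots of 48 to 61. The values of MX2 and OAS2 therefore depend most on how background was handled.

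All 8 genes had higher mean levels in summer than in autumn in both horns, and in all 8 both summer means lay above both autumn means. Of all probes measured, 24.1% had that order. Over both horns the season change, the log2 level in summer minus that in autumn, ran from 0.45 ± 0.17 (SE) for XAF1 to 1.27 ± 0.28 for MX2, which is 1.37-fold to 2.42-fold. The 2 horns of the same season overlapped for every one of the 8 genes. No gene of the 8, and no probe of the array, passed limma's threshold of 0.05 on the adjusted p in any comparison, so the seasonal pattern is a description of 12 arrays that the test across all probes did not call.

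**Figure D1:**
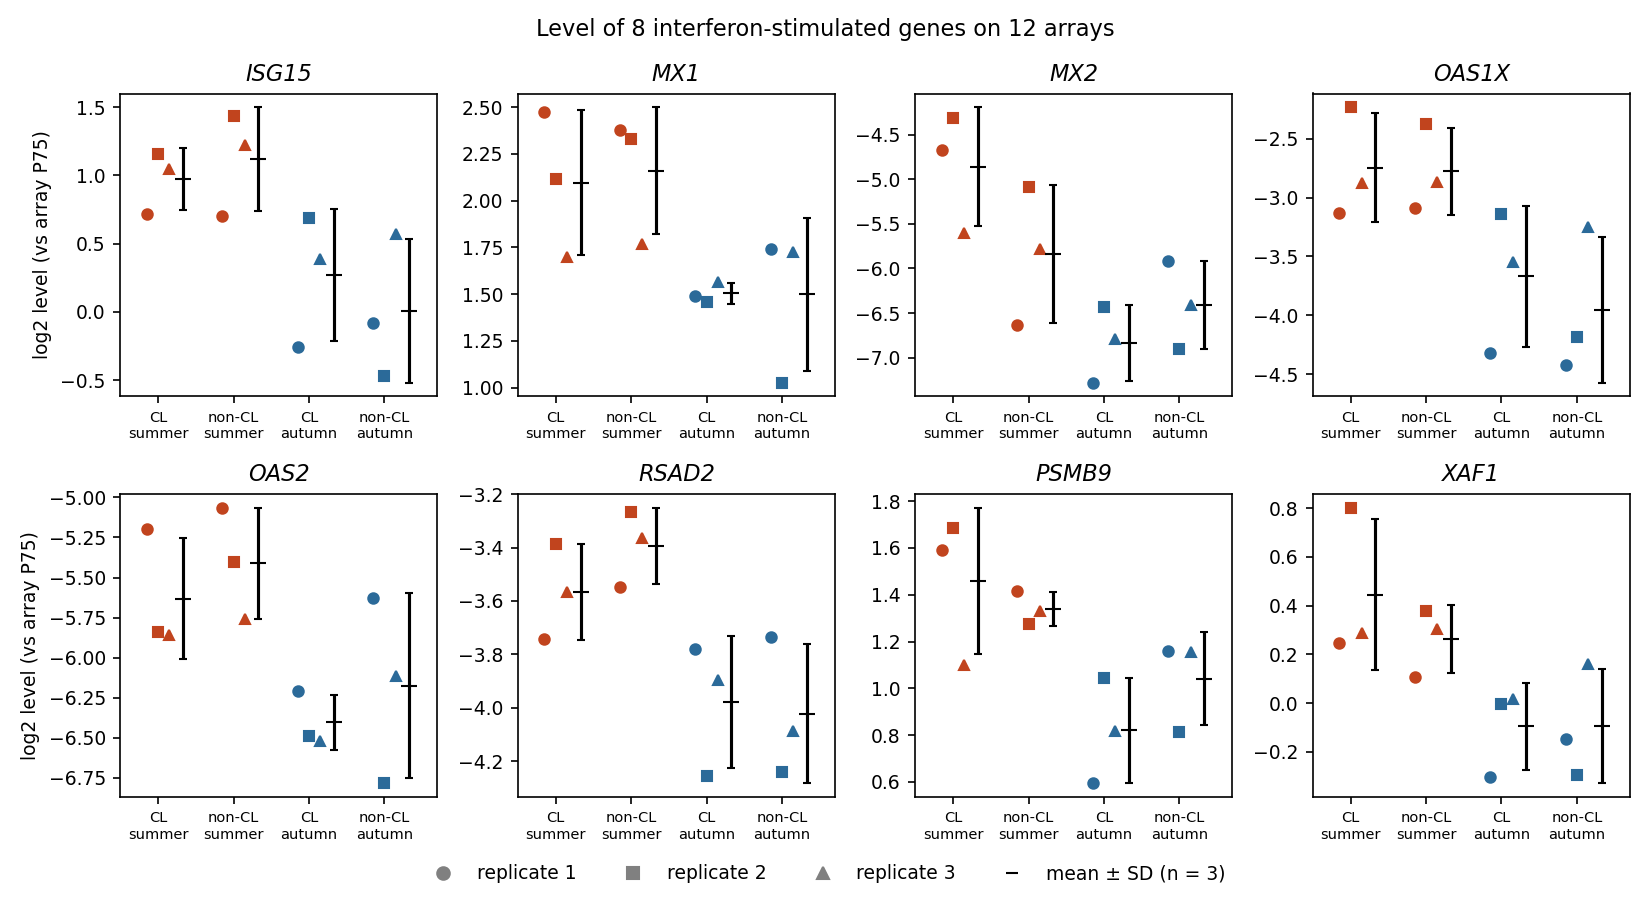
Log2 level of each of the 8 genes (y axis, relative to the array's 75th percentile; each panel has its own range) in the 4 groups (x axis). Red symbols are summer arrays and blue symbols autumn arrays, with the shape giving the replicate number, and the black bar is the mean ± SD (n = 3). For ISG15 and OAS1X the 6 summer arrays sit above the 6 autumn arrays, and for MX2 the CL-side summer mean sits above the other 3 means.

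ISG15 encodes a ubiquitin-like protein that is joined to viral and host proteins after interferon exposure. Its log2 level on the CL side was 0.72, 1.16 and 1.04 in summer and −0.26, 0.69 and 0.39 in autumn, for replicates 1, 2 and 3. On the non-CL side it was 0.70, 1.44 and 1.22 in summer and −0.08, −0.47 and 0.57 in autumn. Every summer array lay above every autumn array, if by little, since the lowest summer level was 0.70 and the highest autumn level 0.69. The group means were 0.97 ± 0.23 (SD, n = 3) and 0.27 ± 0.48 on the CL side and 1.12 ± 0.38 and 0.0073 ± 0.52 on the non-CL side, summer before autumn. The log2 season change, summer minus autumn, was 0.70 ± 0.32 (SE) on the CL side and 1.11 ± 0.32 on the non-CL side, with limma's unadjusted p at 0.0505 and 0.00534. The difference between these changes was −0.41 ± 0.45. On the CL side it depended on single arrays, with 0.44 when autumn replicate 1 was left out. The first slide gave 1.23 and 1.20 for the CL and non-CL sides.

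MX1 and MX2 encode dynamin-like GTPases that hold back the replication of many viruses. MX1 had log2 levels of 2.47, 2.12 and 1.70 in summer and 1.49, 1.46 and 1.57 in autumn on the CL side. In the other horn they were 2.38, 2.33 and 1.77 in summer and 1.74, 1.03 and 1.72 in autumn. Within each horn the seasons did not overlap, but CL-side summer replicate 3, at 1.70, lay below non-CL-side autumn replicates 1 and 3. For MX1 the log2 season change was 0.59 ± 0.26 (SE) on the CL side and 0.66 ± 0.26 on the non-CL side, a 1.51-fold and a 1.58-fold difference, with limma's unadjusted p of 0.0447 and 0.0277. Without non-CL-side autumn replicate 2, the lowest array for this gene, the second change was 0.43. The first slide gave 0.61 and 0.42.

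MX2 had the lowest signals of the 8 probes, and its log2 levels on the CL side were −4.67, −4.31 and −5.60 in summer against −7.28, −6.43 and −6.78 in autumn. The non-CL side had −6.63, −5.09 and −5.78 in summer and −5.91, −6.90 and −6.41 in autumn. The seasons were apart on the CL side and overlapped on the non-CL side, where summer replicate 1 lay under autumn replicates 1 and 3. The level of −7.28 is the floor set for all arrays, the lowest value this scale allows. This gave a log2 season change of 1.97 ± 0.45 (SE) on the CL side and 0.58 ± 0.45 on the non-CL side, with limma's unadjusted p of 0.00115 and 0.224. Leaving out summer replicate 2 of that side gave a second change of 0.20, and leaving out summer replicate 1 gave 0.97. The first slide gave 2.42 and 0.079. The CL-side value was the largest change of the 8 genes, at 3.92-fold, and depended on the values used. It was 0.97 after normexp background correction and 0.32 in the table of log2 values that the authors deposited for the same arrays.

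OAS1X and OAS2 encode oligoadenylate synthetases, enzymes that sense double-stranded RNA and make the messenger that activates RNase L. OAS1X had log2 levels of −3.13, −2.24 and −2.88 in summer and −4.32, −3.14 and −3.54 in autumn on the CL side. The non-CL side had levels of −3.09, −2.38 and −2.87 in summer and −4.42, −4.18 and −3.25 in autumn. As for ISG15, every summer array lay above every autumn array, the nearest pair being −3.13 and −3.14. The log2 season change of OAS1X was 0.92 ± 0.39 (SE) on the CL side and 1.17 ± 0.39 on the non-CL side, with limma's unadjusted p of 0.0380 and 0.0122. The CL-side change was 0.59 without autumn replicate 1, and the first slide gave 1.57 and 1.64. A probe for the related gene OAS1Z was well above background on 0 arrays.

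OAS2 had log2 levels of −5.20, −5.84 and −5.86 in summer and −6.21, −6.49 and −6.52 in autumn on the CL side. For the non-CL side they were −5.07, −5.40 and −5.76 in summer and −5.63, −6.78 and −6.11 in autumn. The seasons were apart on the CL side, and on the non-CL side autumn replicate 1 lay above summer replicate 3. For OAS2 the season change on the log2 scale was 0.77 ± 0.30 (SE) on the CL side and 0.76 ± 0.30 on the non-CL side, with limma's unadjusted p of 0.0276 and 0.0290. In the authors' deposited values these changes were 0.047 and 0.20, and the first slide alone gave 0.57 and 0.22. Without autumn replicate 2 of the non-CL side the second change was 0.46. The OAS2 change thus depended on the source of the values.

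RSAD2 encodes viperin, an enzyme of the endoplasmic reticulum that makes a nucleotide able to stop viral RNA synthesis. Its log2 levels were −3.74, −3.39 and −3.57 in summer and −3.78, −4.25 and −3.90 in autumn on the CL side. They were −3.55, −3.27 and −3.37 in summer and −3.73, −4.24 and −4.09 in autumn on the non-CL side. The seasons did not overlap within either horn, and the autumn arrays numbered 1, the 2 that shared a slide with summer, were the autumn arrays nearest to summer. The log2 season change of RSAD2 was 0.41 ± 0.19 (SE) on the CL side and 0.63 ± 0.19 on the non-CL side, with limma's unadjusted p of 0.0502 and 0.00651. Restricted to the first slide, it was 0.21 and 0.34, and with slide as a block it was 0.17 and 0.39.

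PSMB9 encodes a catalytic subunit of the immunoproteasome, which cuts proteins into peptides for presentation to T cells. Its log2 levels were 1.59, 1.68 and 1.1 in summer and 0.60, 1.05 and 0.82 in autumn on the CL side. For the non-CL side the levels were 1.42, 1.27 and 1.33 in summer and 1.16, 0.81 and 1.15 in autumn. The seasons were apart in both horns. PSMB9 varied little within groups, with SDs of 0.073 to 0.31. PSMB9 had a log2 season change of 0.64 ± 0.19 (SE) on the CL side and 0.30 ± 0.19 on the non-CL side, with limma's unadjusted p of 0.00669 and 0.144. The difference between these changes was 0.34 ± 0.27. Without autumn replicate 2 the non-CL-side change was 0.18, and the first slide gave 0.86 and 0.18.

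XAF1 encodes a zinc-finger protein that promotes apoptosis and counters the apoptosis inhibitor XIAP. Its log2 levels were 0.25, 0.80 and 0.29 in summer and −0.30, −0.0018 and 0.017 in autumn on the CL side. They were 0.11, 0.38 and 0.30 in summer and −0.15, −0.30 and 0.16 in autumn on the non-CL side. The seasons were apart on the CL side, where the dim array had the highest level, and overlapped on the non-CL side through summer replicate 1 and autumn replicate 3. The log2 season change of XAF1 was 0.54 ± 0.19 (SE) on the CL side and 0.36 ± 0.19 on the non-CL side, with limma's unadjusted p of 0.0177 and 0.0908. Without the dim array the CL-side change was 0.36. The first slide gave 0.75 and 0.41.

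On the CL side the summer and autumn arrays thus did not overlap for 8 of 8 genes, where 7.97% of all probes were higher in summer with no overlap. Of the 8 genes, 6 had an unadjusted p under 0.05 in limma with a higher summer level, against 6.37% of all probes, and 0 passed the adjusted threshold (0% of 12381 probes). Their adjusted p lay between 0.496 and 0.501. The median log2 change was 0.67 for the 8 genes and 0.023 for all probes. Leaving out the dim array together with autumn replicate 1, the array with the most values at the floor, gave a median of 0.42. Groups that do not overlap stay apart when arrays are left out, so the count of 8 was not checked by this. With normexp background correction and with the authors' deposited values the seasons did not overlap for 5 of the 8 genes each.

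On the non-CL side 5 of 8 genes had no overlap, namely ISG15, MX1, OAS1X, RSAD2 and PSMB9, against 2.62% of all probes. The same number, ISG15, MX1, OAS1X, OAS2 and RSAD2, had an unadjusted p under 0.05 in limma with a higher summer level, against 0.622% of all probes, and 0 passed the adjusted threshold (0% of 12383 probes), with an adjusted p of 1 for each. The median log2 change was 0.64 for the 8 genes and −8.2e-05 for all probes. On the first slide alone the median was 0.38 and all 8 changes were above 0.

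Same-numbered arrays of the 2 horns were averaged to compare the seasons over both sides, with 3 means per season. On these means the seasons did not overlap for 8 of 8 genes, against 5.46% of all probes. On the 12 separate arrays they did not overlap for 2, ISG15 and OAS1X, against 0.31% of all probes. The log2 season change was 1.27 ± 0.28 (SE) for MX2, 1.05 ± 0.32 for OAS1X, 0.91 ± 0.23 for ISG15 and 0.77 ± 0.25 for OAS2. It was 0.63 ± 0.22 for MX1, 0.52 ± 0.17 for RSAD2, 0.47 ± 0.14 for PSMB9 and 0.45 ± 0.17 for XAF1. Neighbours in this order differed by less than their errors. Limma's unadjusted p lay between 0.00307 and 0.0320 for all 8, against 2.68% of all probes that had such a p under 0.05 and a higher summer level, and the adjusted p was 0.894 for each. With the authors' deposited values the changes were 0.21 for MX2 and 0.13 for OAS2. For the brighter probes they were 0.91 for ISG15, 0.63 for MX1, 0.47 for PSMB9 and 0.45 for XAF1, where the values of the 2 sources differed by no more than 0.012 on any array. Between these extremes lay OAS1X, at 0.88, and RSAD2, at 0.41.

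**Figure D2:**
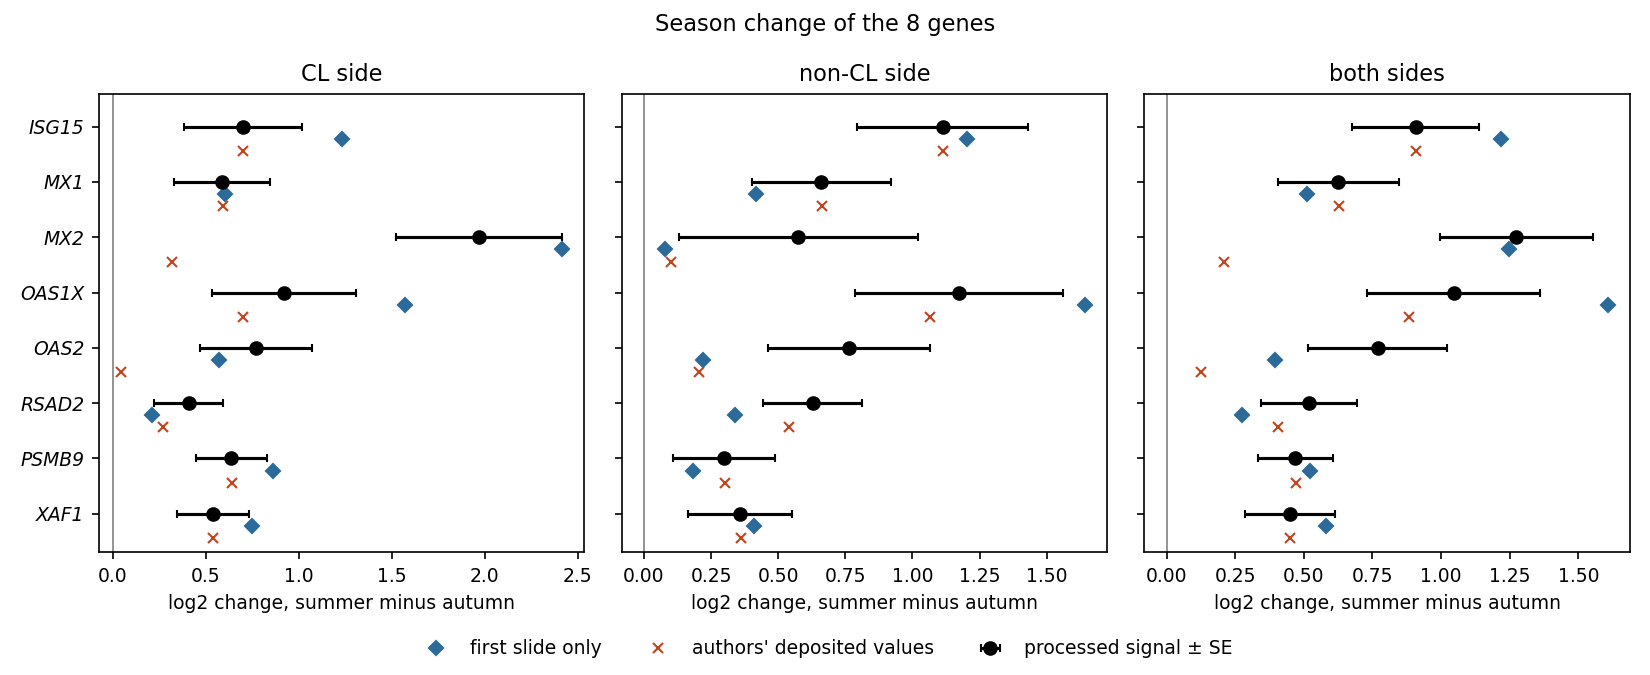
Log2 change, summer minus autumn (x axis), of each gene (y axis) on the CL side, the non-CL side and over both sides. Black points with bars are the change and its SE from the processed signals, blue diamonds the change on the first slide alone, and red crosses the change in the authors' deposited values. All points lie above 0, and the crosses fall far below the black points for MX2 and OAS2 alone.

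The sides differed little within a season. In summer the median log2 difference, CL side minus non-CL side, was −0.017 over the 8 genes, with 4 above 0, and in autumn it was 0.0033, with 4 above 0. Of all probes, 48.9% and 42.6% were above 0 in these comparisons. No gene had groups without overlap in either season. Of all probes, 1.88% were higher and 1.65% lower on the CL side with no overlap in summer, and 2.35% and 5.55% in autumn. Apart from MX2 the summer differences ran from −0.22 ± 0.30 (SE) for OAS2 to 0.18 ± 0.19 for XAF1. The autumn differences ran from −0.42 ± 0.45 for MX2 to 0.28 ± 0.39 for OAS1X. These intervals leave room for side differences of the size of many of the season changes.

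MX2 in summer was the largest side difference, at 0.97 ± 0.45 (SE) on the log2 scale, with limma's unadjusted p at 0.0525 and an adjusted p of 0.984. Taken by replicate number, its differences were 1.96, 0.78 and 0.18, with 3 of 3 above 0. A single direction was not particular to MX2, since OAS2 and RSAD2 had 0 of 3 above 0. For RSAD2 the differences were −0.20, −0.12 and −0.20. The season change of MX2 was larger on the CL side by 1.40 ± 0.63, with limma's unadjusted p at 0.050 and an adjusted p of 0.999. This difference was 0.22 with the authors' deposited values and 2.34 on the first slide. For the other 7 genes the difference between the season changes ran from −0.41 ± 0.45 for ISG15 to 0.34 ± 0.27 for PSMB9. In limma 0 of 12389 probes were called for the side in summer, 0 of 12378 in autumn and 0 of 12375 for the difference between season changes, while 175, 230 and 233 had an unadjusted p under 0.05.

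The 8 genes followed each other across the arrays. All 28 pairs had a Pearson r above 0 over the 12 arrays, with a median of 0.68, a minimum of 0.41 for OAS1X with OAS2 and a maximum of 0.95 for ISG15 with OAS1X. These points share the season, the scaling and the slides. Taken as deviations from the 4 group means, 23 of 28 pairs stayed above 0 and the median fell to 0.36. The highest values then lay among ISG15, OAS1X and XAF1, with r of 0.89, 0.87 and 0.82, and between MX1 and OAS2, with 0.85. MX2 and PSMB9 had links to these genes, with 0.64 for MX2 and XAF1. PSMB9 had 0.62 with MX1 and 0.57 with XAF1. OAS1X with OAS2 had an r of −0.35, the lowest of the 28, although both encode synthetases of 1 family. The OAS2 probe lay near background, and over the arrays its levels correlated at 0.16 with the authors' deposited values. MX2 had 0.41 there, so pairs with either gene may depend on the source of the values.

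**Figure D3:**
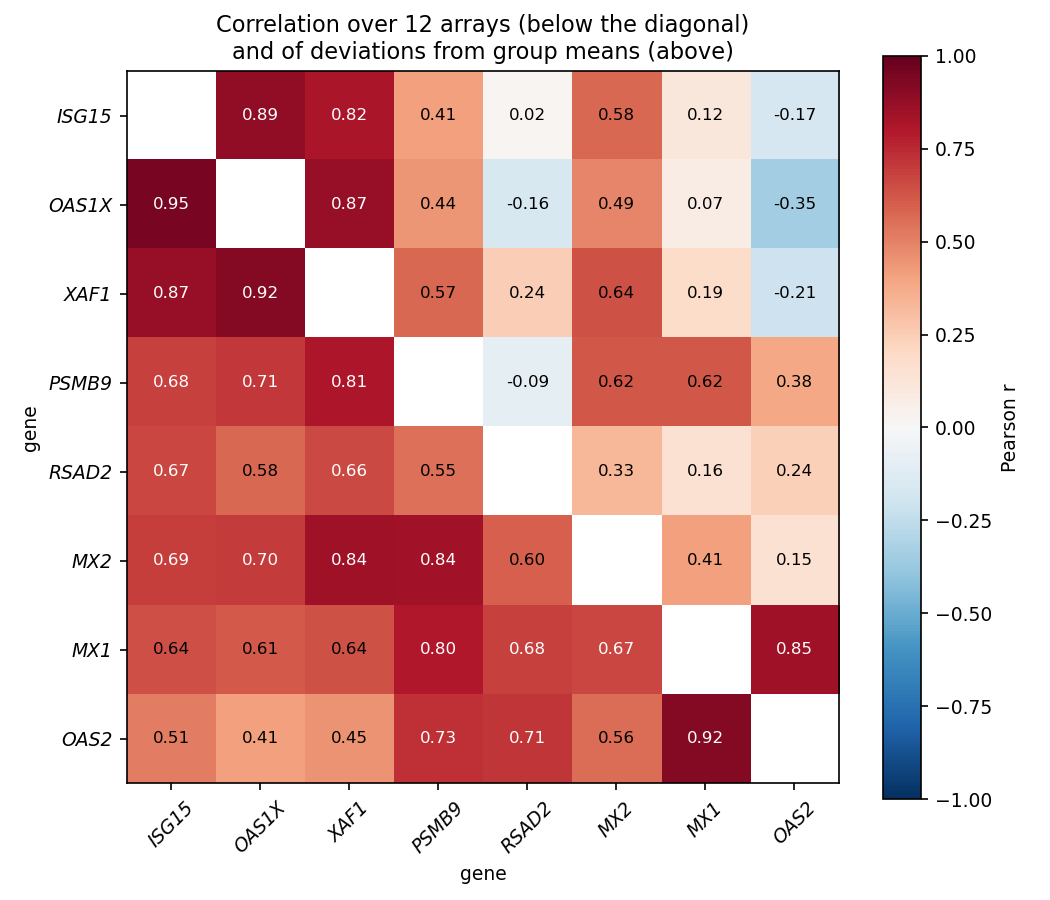
Pearson r between the levels of the 8 genes, over the 12 arrays below the diagonal and for deviations from the 4 group means above it, with the colour scale from −1 to 1. Below the diagonal every value is above 0, and above it ISG15, OAS1X and XAF1, and MX1 with OAS2, keep the highest values.

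The replicate numbers gave a related view of the same deviations. In summer 6 of 8 genes ranked their 3 numbers alike in both horns, against 30.2% of all probes. ISG15, OAS1X, RSAD2 and XAF1 were lowest in replicate 1 and highest in replicate 2 in either horn, while MX1 and OAS2 were highest in replicate 1 and lowest in replicate 3. In autumn 1 of 8, RSAD2, ranked its numbers alike, against 22.4% of all probes.

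As a summary, the level of the 8 genes on an array was taken as the mean of their log2 differences from each gene's 12-array mean. In summer it was 0.44, 0.65 and 0.18 for the CL side and 0.19, 0.56 and 0.26 for the non-CL side. In autumn it was −0.61, −0.24 and −0.34 on the CL side and −0.23, −0.73 and −0.13 on the non-CL side. Every summer array had a value above 0 and every autumn array one below. The highest was the dim array and the lowest was non-CL-side autumn replicate 2.

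Among 4564 named genes well above background on all 12 arrays, the 5 most like this summary included RABIF, with a Pearson r of 0.95, BASP1, with 0.90, and DHRS9 and GSDMC, with 0.86 each. RABIF encodes a factor that binds Rab GTPases and GSDMC a gasdermin, a protein that can form membrane pores. RABIF had log2 levels from −3.57 to −3.10 on the 6 summer arrays and from −4.25 to −3.74 on the 6 autumn arrays. BASP1 levels ran from −0.10 to 0.75 in summer and from −0.77 to 0.27 in autumn and overlapped. In the authors' deposited values r was 0.97 for RABIF and 0.84 for BASP1, but 0.31 for DHRS9 and 0.37 for GSDMC, whose signals were low. The sensor gene RIGI ranked 10 (r of 0.84) and IRF9 ranked 20 (0.81), and the median r was 0.40 for 49 other interferon pathway genes and 0.067 for all 4564.

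The median seasonal difference of other pathway genes was smaller than that of the 8, which were named with earlier results known, while single genes lay within their range. Of a list of 142 symbols, 60 were on the array and 53 could be measured. Over both sides 45 of the 53 had a log2 change above 0, against 52.7% of all probes, with a median of 0.18. Of the 53, 3 had a higher summer level with an unadjusted p under 0.05 in limma, against 2.68% of all probes. The 3 were RIGI, TLR7 and IFNG. A lower level with such a p was seen in 0 genes, against 1.3% of all probes, and 0 passed the adjusted threshold. IFNG, STING1 and TLR8 were kept through summer arrays alone, which favours a higher summer level in these counts. On the CL side 41 of 53 had a change above 0, with a median of 0.23, and on the non-CL side 44 of 53, with a median of 0.16. The share of probes above 0 was 53% and 49.9% there.

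Few of the interferons themselves could be measured. IFNG, the type II interferon of T and NK cells, was well above background on 3 of 3 CL-side summer arrays, 0 of 3 CL-side autumn arrays and 1 of 3 arrays in each non-CL-side group. It was at least 2.09-fold higher in summer than in autumn on the CL side, a bound, since the autumn mean of −7.27 lay close to the floor. Its season change over both sides had an unadjusted p of 0.0201 and an adjusted p of 0.894 in limma. The probe was kept through the CL-side summer arrays alone, where it was highest, so this change and its p lean toward summer. IFNAC, a type I interferon of the alpha class, was well above background on 11 arrays and had a log2 change of 0.58 ± 0.34 (SE) over both sides. IFNB1 was well above background on 0 arrays, and the trophoblast interferon IFNT2 on 4 arrays, of which 2 were CL-side summer arrays and 1 came from each non-CL-side group.

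Receptor genes showed no common direction. IFNGR1 had a log2 change over both sides of −0.15 ± 0.13 (SE), IFNGR2 one of 0.10 ± 0.28 and IFNAR2 one of −0.02 ± 0.17. Downstream, all 6 measured transducers and factors had a change above 0. IRF9, the DNA-binding part of that complex, had 0.30 ± 0.17, IRF5 0.18 ± 0.14 and IRF3 0.21 ± 0.22.

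Among the sensors of foreign RNA and DNA, RIGI, which binds viral RNA in the cytosol, had a log2 change of 0.50 ± 0.18 (SE) over both sides, with an unadjusted p of 0.0268 in limma. It was 0.50 in each horn. TLR7, a receptor for single-stranded RNA in endosomes, had 0.48 ± 0.17, with an unadjusted p of 0.0277. STING1, an adaptor of DNA sensing, had 0.57 ± 0.31 and was well above background on 7 arrays. In all, 9 of 10 measured sensors and adaptors had a change above 0, among them STING1 and TLR8, which were kept through summer arrays alone.

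Of 17 other antiviral targets measured, 16 had a log2 change above 0 over both sides, and 0 had an unadjusted p under 0.05 in limma. PARP9, an ADP-ribosyltransferase family member, had 0.20 ± 0.12 (SE), the interferon-induced NMI 0.24 ± 0.15 and IFITM3, which blocks virus entry, 0.17 ± 0.12. The median of these targets was 0.18, with a range from −0.02 to 0.65, which overlaps the range of the 8 genes described above. USP18, which removes ISG15 from its targets, had 0.25 ± 0.15, and UBA7, the enzyme that activates ISG15 for conjugation, −0.05 ± 0.49.

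Genes of antigen processing, where PSMB9 belongs, had changes above 0 in 8 of 10. B2M, the light chain of class I molecules, had 0.32 ± 0.18 (SE) on the log2 scale over both sides, PSMB10, a further immunoproteasome subunit, 0.21 ± 0.14 and PSME2, a subunit of the proteasome activator, 0.20 ± 0.13. The inhibitor SOCS3 had 0.65 ± 0.32, with 1.11 on the CL side and 0.20 on the non-CL side. PIAS1 had 0.18 ± 0.19.

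**Figure D4:**
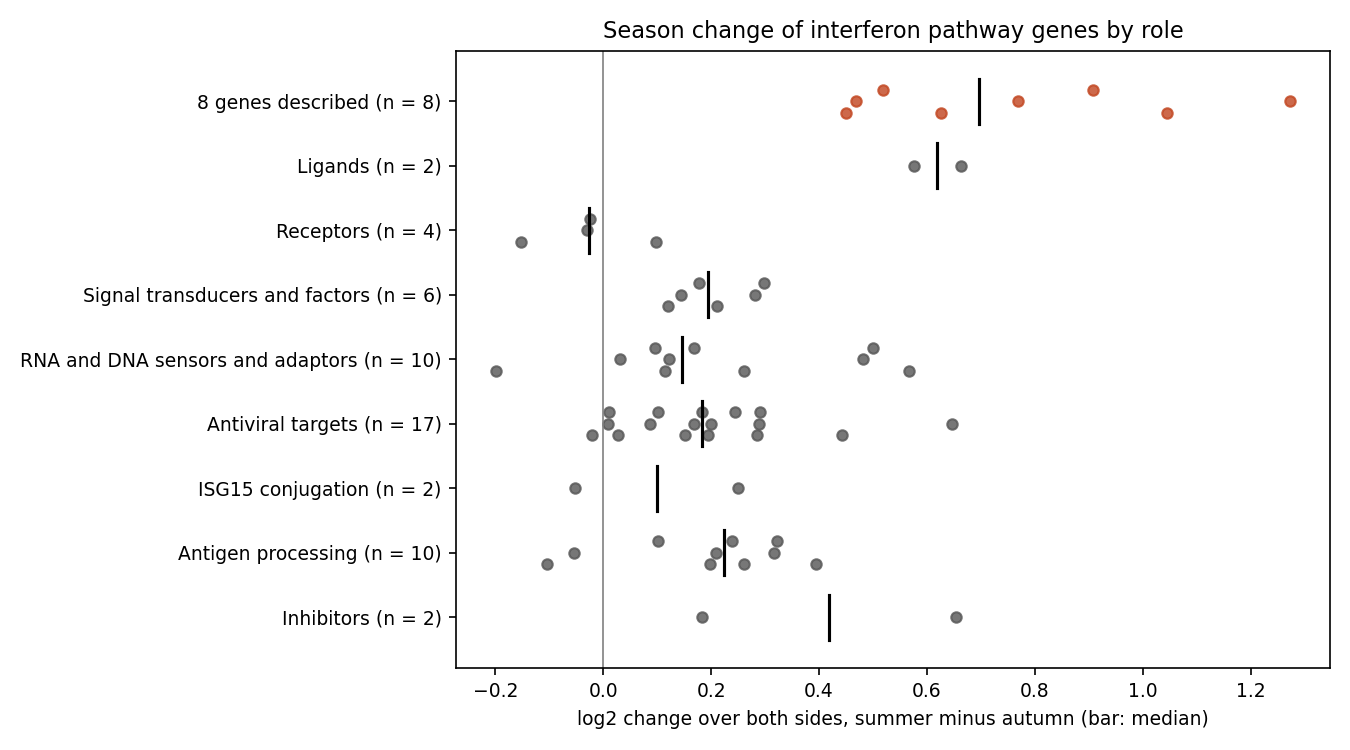
Log2 change over both sides, summer minus autumn (x axis), of the 8 genes (red) and of 53 other measured genes of the interferon pathway (grey), by role (y axis), each point a gene and each bar the median of its row. The 8 genes lie between 0.45 and 1.27, and the medians of the receptors and of the other antiviral targets lie at −0.03 and 0.18.

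In a biopsy, fewer cells of a type and less RNA per cell cannot be told apart, and marker levels of some cell types on the CL side moved with season. All 7 stroma markers were measured, and their summed linear level, in units of the array's 75th percentile, was 49.8 to 136 in summer and 145 to 166 in autumn on the CL side. On the non-CL side it was 119 to 130 in summer and 117 to 129 in autumn. Of 5 neutrophil markers, S100A8 and S100A12 were measured, and their sum was 2.91 to 6.46 and 1.25 to 2.66 on the CL side, summer before autumn, and 1.05 to 1.91 and 0.50 to 1.80 on the non-CL side. Over the 12 arrays the summary of the 8 genes correlated with the stroma score at −0.61 and with the neutrophil score at 0.73. On the non-CL side the stroma and neutrophil markers overlapped between seasons, while TCF4, a marker described below, and the endothelium score did not. That score, over 5 of 5 markers, was 0.059 to 0.32 in summer and −0.22 to 0.0022 in autumn there. The summed endothelium level overlapped, at 2.33 to 3.16 and 2.24 to 2.45, as did the score on the CL side. The median change of the 8 genes was 0.64 on the non-CL side and 0.67 on the CL side. The part of any cell type in the values of either side was not tested.

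Summed marker levels of other cell types overlapped between seasons or rested on few genes. The epithelium score, the mean log2 difference of its markers from their 12-array means, did not overlap on the CL side. It was −0.17 to 1.37 in summer and −0.35 to −0.21 in autumn there, and it overlapped on the non-CL side. Its correlation with the summary of the 8 genes was 0.48. Only CDH1 among these markers was lower in summer on the CL side. Epithelium (6 of 7 markers measured) had a summed level of 27.6 to 63.1 in summer and 20.6 to 27.8 in autumn on the CL side, and 27.0 to 32.4 and 25.4 to 37.1 on the non-CL side. T and NK cell markers (6 of 8) had 1.47 to 7.07 and 1.19 to 2.52 on the CL side and 2.24 to 5.53 and 0.95 to 4.13 on the non-CL side. Of the white blood cell markers 2 of 3 were measured, with 0.34 to 0.45 and 0.22 to 0.32 on the CL side and 0.23 to 0.26 and 0.18 to 0.30 on the non-CL side. CORO1A had CL-side mean log2 levels of −1.39 and −1.95, summer before autumn. PTPRC had the reverse order, with −6.53 and −6.16. Unlike the sum, the score of both markers overlapped there, with a range of 0.13 to 0.62 against −0.44 to 0.81. For plasmacytoid dendritic cells, known as strong producers of type I interferon, TCF4 alone was measured, which other cells also express. It ran from 0.91 to 1.21 in summer and 0.41 to 1.13 in autumn on the CL side, and from 0.87 to 1.07 and 0.34 to 0.81 on the non-CL side. Of 7 trophoblast markers 5 were on the array, and none of them was well above background on all arrays of any group. PAG2 was well above background on 2 arrays, both from the CL side in summer, and CDX2 on 1 CL-side summer array. PRP1 was so on 1 non-CL-side autumn array and CSH2 on 0 arrays, and IFNT2 is given above. The source of these signals was not tested.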

How the data were processed

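Groups and replicate numbers came from the sample titles. The file headers name Agilent Feature Extraction 9.5.1.1 (9.5 in the submitters' processing notes), and per the file headers the deposited processed signal is a spot intensity, background-subtracted and detrended within the array. It was divided by the array's 75th percentile of all probes other than controls, then log2-transformed with a floor of −7.28. Outlier-flagged values (466) were set to missing, and a probe was kept where 1 group or more had it well above background throughout, which held for 12404 probes. The authors also deposited log2 values of the same arrays, used as an alternative. Their columns correlated with the scanner values of the same array at 0.971 or more and had medians from −2.79 to −2.61. They run in the same direction, and their scale, centring and treatment of low signals are not given in the sources used here.

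Limma 3.58.1 (R 4.3.3) tested season and side, two-sided, with Benjamini-Hochberg adjustment over all kept probes and a threshold of 0.05. A single fit of 4 group means over 12 arrays was used (8 residual degrees of freedom). For both sides together, 6 means of same-numbered horns were used (4 residual degrees of freedom). The procedure was tested on simulated data with independent arrays, no shared slide or animal, and added changes larger than most described here. That test does not cover smaller changes or paired horns. The labels do not state that a number marks an animal. Deviations of same-numbered horns correlated at 0.137 to 0.500 in 6 of 6 pairs, and those of the other 12 pairs at −0.416 to 0.0315. Deviations within a group sum to 0, so the low values of the other pairs are partly fixed by the same-numbered ones. Because the 6 same-numbered pairs lay above 0, the numbers were taken to pair the arrays within a season when the horns were averaged. Side differences and differences between season changes come from the fit over 12 arrays, which does not use this pairing.

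The 8 genes, the pathway list, the cell markers and the tests were chosen with earlier results of these data known. MX2, PSMB9, XAF1 and OAS2 had then been named for the CL side and ISG15, RSAD2, OAS1X and MX1 for the non-CL side, and their direction is not independent evidence. Named were also, per role of the pathway, up to 3 genes with the smallest unadjusted p over both sides, and the 5 genes most correlated with the 8, of which 1 is not reported here, as is 1 probe sequence. Counts over all probes come from the same fits. The number of arrays limits the precision.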

Additional observations from a re-analysis of the deposited data

How the results depend on the processing

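The season changes of the 8 genes kept their direction under all 24 alternatives wherever a value could be computed (136 values on the CL side, 128 on the non-CL side and 184 over both sides), and limma called none of them, with a smallest adjusted p of 0.156, 0.542 and 0.609. Among these were fits with a replicate block within or across seasons, in which 0 probes were called in every comparison. Each number occurs 1 time per group, so such a block cannot move the median season changes of 0.67, 0.64 and 0.70. Leaving out arrays likewise cannot turn a change where the seasons do not overlap. That held for 8 genes on the CL side and 5 on the non-CL side, so part of the kept directions was fixed in advance. The CL-side median was 0.42 without the dim array and CL-side autumn replicate 1, an alternative chosen after seeing the data. The non-CL-side median was 0.38 on the first slide, where 1 probe was called. The 8 genes without overlap on the CL side became 5 with normexp background correction and 5 with the authors' values, and those over both sides became 5 with the authors' values. The cause was not tested.

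When single arrays were left out, 0 to 7 probes were called for the season on the CL side (2 without summer replicate 1, 4 without summer replicate 3 and 7 without autumn replicate 3). For the side, 0 to 1 were called in summer (1 without CL-side summer replicate 3) and 0 to 6 in autumn (6 without CL-side autumn replicate 3). For the difference between season changes, 0 to 1 were called (1 without CL-side summer replicate 3). No gene of the 8 was among them.

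Small side differences changed sign. In autumn, on the first slide, they were −0.18 for ISG15, −0.25 for MX1 and −0.044 for RSAD2. With the authors' values they were 0.39 for MX2 and 0.32 for OAS2, and XAF1 had 0.0059 with median scaling and 0.0092 with normexp. Leaving out 1 array gave −0.23 to 0.13 for MX1, −0.53 to 0.043 for OAS2, −0.065 to 0.19 for RSAD2 and −0.10 to 0.13 for XAF1. In summer OAS2 had 0.029 with normexp and 0.16 with the authors' values, and leaving out 1 array gave −0.35 to 0.014 for ISG15, −0.26 to 0.14 for MX1 and −0.23 to 0.23 for OAS1X. For the difference between season changes the first slide gave 0.030 for ISG15, 0.19 for MX1 and a median of 0.26, and OAS2 had −0.29 with quantile normalization and −0.16 with the authors' values. Leaving out 1 array gave −0.27 to 0.16 for MX1, −0.60 to 0.011 for OAS1X, −0.26 to 0.31 for OAS2 and −0.18 to 0.22 for the median. Averaging several probes of a gene was not run, since each of the 8 has 1 probe. Low signal limits MX2 and OAS2.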
